A study of Mus musculus with 12 samples.

Results

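Alveolar type 2 (AT2) cells were compared in a design that crosses genotype with treatment, to describe which genes and functions responded to bleomycin (BLM) differently in cells with and without Atg5, and which of the 4 groups stood apart for each. All 12 of the 12 RNA sequencing libraries were used, 3 in each group, and 10675 of the 21878 genes in the deposited table entered the test because they reached 1 FPKM (fragments scaled to exon length and library size) in at least 3 libraries. AT2-PBS and AT2-BLM were AT2 cells of Atg5f/f mice that received phosphate-buffered saline or BLM, and both are labelled wild type. Atg5-/- AT2-PBS and Atg5-/- AT2-BLM came from mice that carry Nkx2.1Cre beside the floxed Atg5 alleles, with the same treatments. All groups thus share the floxed alleles and the C57BL/6 strain of the labels. Nkx2.1 drives Cre throughout the lung epithelium, so that deletion is not limited to AT2 cells. Mice were 8 to 12 weeks old, BLM was given at 2 U/kg and cells were taken on day 14. The methods of the study do not describe the Atg5-/- AT2-PBS libraries, so that their age, day and sort are not known here. The sort that the study describes for AT2 cells kept EpCAM+ cells that were negative for CD31, CD34, CD45, CD24 and Sca-1. Whether each library came from 1 animal or from pooled animals is not stated, so p-values measure the spread between these libraries.

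AT2 cells make and store surfactant and act as progenitors of the alveolus, where they can pass through a transitional state to flat AT1 cells. BLM breaks DNA and injures this epithelium. Autophagy delivers cytoplasmic cargo to lysosomes, and ATG5 is part of the conjugation machinery that builds the autophagosome membrane. Among its cargo receptors is p62 (Sqstm1), which also binds KEAP1, the inhibitor of the antioxidant transcription factor NRF2.

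The measure throughout is the interaction, which is the BLM effect in Atg5-/- cells minus the BLM effect in Atg5f/f cells on the log2(FPKM + 1) scale. A negative value means that the BLM effect was lower in Atg5-/- cells, and this can arise from any of the 4 groups. A gene counts as called when it differed by at least 1.4-fold with an unadjusted p below 0.05. The number with an adjusted p under 0.05 (limma, Benjamini-Hochberg over all 10675 genes) is given beside the totals and some list counts of the interaction. Counts of list members for the other contrasts are by the unadjusted p unless stated. The study selected genes by the cut-offs of 1.4-fold and p below 0.05, after DESeq normalization, and describes no test of the interaction. Fold changes on this scale understate those of genes near or below 1 FPKM.

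Summed FPKM ranged from 390141 to 549169 per library, and read depth is unknown because no counts were used. Atg5 itself (chromosome 10 from 43988164 to 44084097 of mm9) was at 12.5, 6.01 and 11.5 FPKM in AT2-PBS, 9.24, 6.72 and 10.1 in Atg5-/- AT2-PBS, 11.1, 9.97 and 10.3 in AT2-BLM and 8.84, 8.46 and 8.37 in Atg5-/- AT2-BLM, with overlapping groups and no call in any contrast. The deposited value covers the whole gene and does not resolve a deleted part, so it does not check the genotype labels. AT2 marker genes were high in every library. Over 10 markers they summed to 18343 to 30401 FPKM in AT2-PBS, 23537 to 27427 in Atg5-/- AT2-PBS, 19194 to 143637 in AT2-BLM and 22666 to 27397 in Atg5-/- AT2-BLM. But Sftpc, the defining surfactant gene, was listed at 0 in 11 libraries and at 112570.0 FPKM in AT2-BLM replicate 2. That entry makes up most of the AT2-BLM maximum and is part of the 549169 summed FPKM of that library. Sftpc did not enter the test, and its values are not read here as expression levels. Markers of cells that the sort should remove differed between groups. The summed level of 12 leukocyte markers was 918 to 1211 FPKM in Atg5-/- AT2-PBS against 80.6 to 149 in AT2-PBS, 126 to 234 in AT2-BLM and 152 to 349 in Atg5-/- AT2-BLM, and Ptprc, which encodes the sorted-out CD45, reached 8.46, 7.54 and 8.01 FPKM there and at most 2.64 elsewhere. Ly6a, the gene of the excluded Sca-1, was at 14.8, 16.8 and 7.36 FPKM in AT2-PBS and from 63.1 to 984 in the other 9 libraries. Epcam was at 102 to 179 FPKM in all 12. The 4 Y-linked genes summed to at least 14 FPKM in 2 AT2-PBS, 0 Atg5-/- AT2-PBS, 1 AT2-BLM (replicate 3) and 2 Atg5-/- AT2-BLM libraries and to under 1 FPKM in the other 7. The methods state male mice for BLM experiments, which those 7 libraries do not match, so that the sex of the animals behind them is uncertain here and settings named by Y-linked expression sort libraries by this measure only.

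The BLM effect differed between genotypes for many genes, and in most of them it was lower in Atg5-/- cells. Of the 10675 genes, 2156 (20.2%) were called for the interaction, 536 (5.02%) positive and 1620 (15.2%) negative, with a median over all genes of -0.09. The adjusted p was under the threshold for 842 genes (7.89%), 83 positive and 759 negative. The balance of directions depended on scaling. Quantile normalization moved the median of all genes to 0.15 and gave 1362 positive and 1123 negative calls, so that 54.8% of calls were positive in place of 24.9%. With only the 7 libraries without Y-linked expression (1, 3, 2 and 1 of the 4 groups in the order of AT2-PBS, Atg5-/- AT2-PBS, AT2-BLM, Atg5-/- AT2-BLM), 903 were positive and 1581 negative, 36.4% positive. With 1 library left in AT2-PBS and in Atg5-/- AT2-BLM, that fit is less precise, so a call lost there need not mean a smaller effect. Without Atg5-/- AT2-PBS replicate 2 the number with an adjusted p under 0.05 was 537.

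The 4 simple contrasts behind the interaction had unequal numbers of calls. BLM changed 3031 genes (28.4%) in Atg5f/f cells, 2202 (20.6%) higher and 829 (7.77%) lower. In Atg5-/- cells it changed 1962 (18.4%), 818 (7.66%) higher and 1144 (10.7%) lower. Loss of Atg5 changed 2058 genes (19.3%) with PBS, 1507 (14.1%) higher and 551 (5.16%) lower. With BLM it changed 551 (5.16%), 218 (2.04%) higher and 333 (3.12%) lower. Numbers with an adjusted p under 0.05 were 1900, 926, 1199 and 1 in that order. Atg5 loss with BLM had 841 genes at an unadjusted p under 0.05. For a single gene, the difference between the contrasts of Atg5 loss with BLM and with PBS is the interaction itself, and the difference between their counts was not tested. With the 7 libraries without Y-linked expression, Atg5 loss with BLM had 1244 calls.

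The BLM effects of the genotypes share no library. Across the 10675 genes, which are not independent, their Pearson correlation was 0.074 and their Spearman correlation 0.23. Genes called in both moved the same way in 437 (both higher) and 132 (both lower) cases, while 249 were higher in Atg5f/f and lower in Atg5-/- cells and 7 the reverse. Of the 1620 negative calls, 567 rose after BLM only by the Atg5f/f test, 619 fell only by the Atg5-/- test, 249 did both and 128 did neither. Of the 536 positive calls, 315 fell only by the Atg5f/f test and 79 rose only by the Atg5-/- test. In the plot of both BLM effects, called genes with Atg5-/- AT2-PBS farthest lie mostly below 0 on the y axis, those with AT2-BLM farthest lie along the x axis on both sides of 0, and those with AT2-PBS farthest reach the largest effects in Atg5f/f cells.

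**Figure D1:**
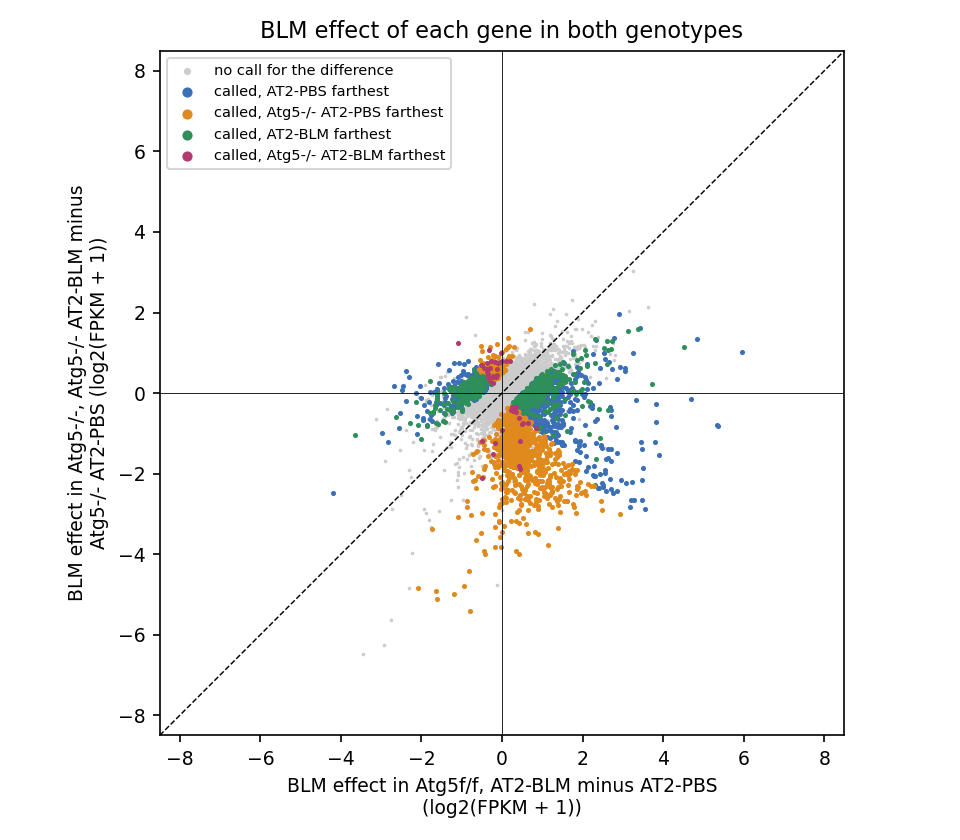
Each point is 1 of 10675 genes, with the BLM effect in Atg5f/f cells on the x axis and in Atg5-/- cells on the y axis, both as differences of group means of log2(FPKM + 1). Grey points were not called for the interaction and colours give the group farthest from the other 3 for the 2156 called genes. Points below the dashed line of equal effects are the negative interactions.

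To say which group carried an interaction, the group whose mean lay farthest from the median of the other 3 was taken for each gene, and it was called set apart where its 3 libraries lay all above or all below the other 9. This is a description without a test. Atg5-/- AT2-PBS was the farthest group in 931 called genes (43.2%), AT2-PBS in 788 (36.5%), AT2-BLM in 392 (18.2%) and Atg5-/- AT2-BLM in 45 (2.09%). Over all genes tested, called or not, the shares were 29.5%, 30.5%, 31.0% and 9.03% in that order. Atg5-/- AT2-PBS was set apart above in 649 called genes (6.65% of all genes tested were of this kind, called or not) and below in 52 (2.1%). AT2-PBS was set apart above in 120 (1.97%) and below in 308 (4.17%). AT2-BLM was set apart above in 137 (4.11%) and below in 72 (1.65%). Atg5-/- AT2-BLM was set apart above in 3 (0.262%) and below in 5 (0.141%). Most set-apart genes thus belonged to the PBS groups. AT2-PBS replicate 1 alone in its group had pancreas and hepatocyte transcripts, at 3538 and 717 summed FPKM against at most 4.84 and 12.2. Their part was not tested. The count for AT2-PBS in both directions was 428, and 750, 493 and 560 without its replicates 1, 2 and 3, where fewer libraries make separation easier. That for AT2-BLM was 209, and 340 without AT2-BLM replicate 1 and 361 without Atg5-/- AT2-BLM replicate 3. For Atg5-/- AT2-BLM it was 8, and 13, 22, 35, 25, 5 and 14 without AT2-BLM replicate 1, Atg5-/- AT2-BLM replicates 1, 2 and 3 and Atg5-/- AT2-PBS replicates 2 and 3.

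**Figure D2:**
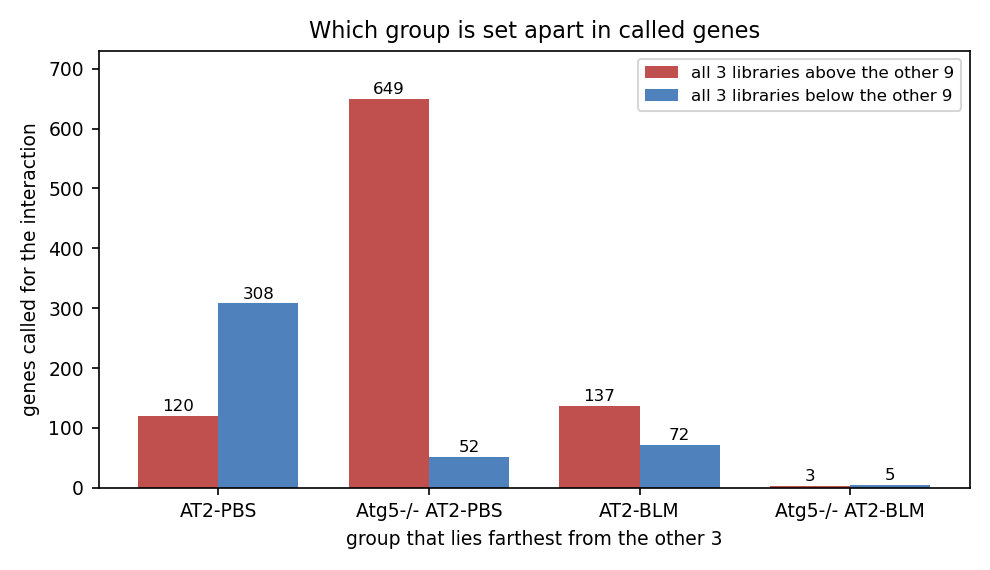
Bars give the number of genes called for the interaction, by the group that lies farthest from the other 3, in which that group's 3 libraries lie all above (red) or all below (blue) the other 9. The tallest bar is Atg5-/- AT2-PBS above, with 649 genes, and the shortest are the 3 and 5 genes of Atg5-/- AT2-BLM.

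Functions were described by 27 hand-written gene lists, with the number of tested members called in each direction and the median interaction, to be read against 5.02% positive, 15.2% negative and a median of -0.09 over all genes. The lists with the largest negative shares were interferon-stimulated genes, NRF2 targets, acute-phase genes, chemokines and p53 targets. Positive shares were largest for surfactant, Wnt signaling and lipid synthesis. No list was tested as a set. The largest function lists, those of ribosomal proteins and the respiratory chain, held 1 and 2 calls, with medians of -0.44 and -0.34.

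**Figure D3:**
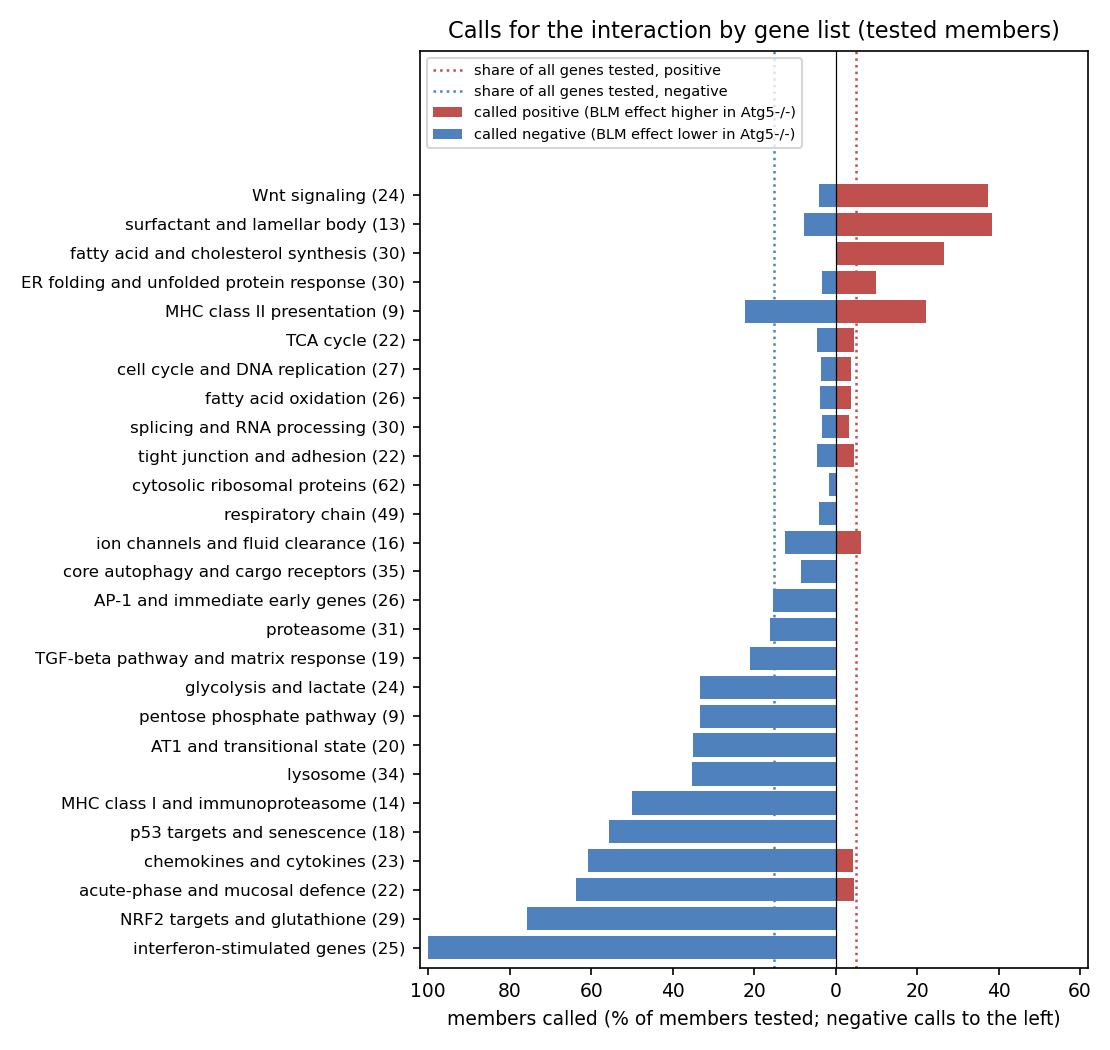
For each function list, with its number of tested members in parentheses, the bar to the right is the percentage called positive and the bar to the left the percentage called negative for the interaction. Dotted lines are the shares over all genes tested, 5.02% positive and 15.2% negative, and the longest bar is that of interferon-stimulated genes, with 25 of 25 negative.

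Interferon-stimulated genes were the list in which every tested member, 25 of 25, was called negative, 12 of them with an adjusted p under 0.05, and the median interaction was -2.99. Type I and II interferons induce these antiviral genes through STAT and IRF factors. In Atg5f/f cells BLM raised 21 of the 25 (median 1.68), and in Atg5-/- cells it raised 0 and lowered 10 (median -1.21). The starting point differed: loss of Atg5 with PBS raised all 25 (median 2.19), whereas with BLM it lowered 1 (median -0.54). AT2-PBS was the farthest group in 19 members and Atg5-/- AT2-PBS in the other 6, and AT2-PBS was set apart below in 14.

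Isg15 (chromosome 4 from 155573533 to 155574927 of mm9), a ubiquitin-like modifier, was at 0.83, 1.67 and 2.92 FPKM in AT2-PBS, 151, 202 and 11.4 in Atg5-/- AT2-PBS, 54.5, 26.9 and 16.7 in AT2-BLM and 23.8, 23.4 and 12 in Atg5-/- AT2-BLM. All 3 AT2-PBS libraries lay below the other 9, and Atg5-/- AT2-PBS replicate 3 lay far below its 2 group members. The interaction was -5.36 ± 1.18 (SE, adjusted p = 0.0169), from a BLM effect of 3.49 in Atg5f/f and -1.87 in Atg5-/- cells. Usp18, the protease that removes ISG15, was at 2.18, 1.56 and 1.19 FPKM in AT2-PBS, 58.5, 79.6 and 8.2 in Atg5-/- AT2-PBS, 33.6, 30.4 and 20.3 in AT2-BLM and 19.3, 9.85 and 15.3 in Atg5-/- AT2-BLM, and its interaction was -4.66 ± 0.87 (SE, adjusted p = 0.00769). Here too AT2-PBS lay below every other library. Irf7, the transcription factor that amplifies the response, was at 5.79, 2.88 and 1.57 FPKM in AT2-PBS, 93.6, 103 and 10.9 in Atg5-/- AT2-PBS, 41.8, 20.1 and 14.7 in AT2-BLM and 33.3, 5.35 and 7.65 in Atg5-/- AT2-BLM. Atg5-/- AT2-BLM replicate 2 lay within the range of AT2-PBS, and the interaction was -4.55 ± 1.15 (SE, adjusted p = 0.0317). In the 7 libraries without Y-linked expression, which hold 1 AT2-PBS library, 7 of the 25 were called, with a median of -2.5, and the call of Irf7 was lost (-2.66). The list's summed level was 179.9 FPKM in Atg5-/- AT2-PBS replicate 3 against 1446 and 1378 in replicates 1 and 2, and 25 were called without replicate 3. Leukocytes also express these genes, and their markers were highest in the same group, at 918 to 1211 summed FPKM, where replicate 3 had 918. Their part in the result was not tested.

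Promoters of these genes are known to carry the interferon-stimulated response element. Its core, searched as GAAANNGAAA on both strands from 250 bases before to 50 after the RefSeq start (GRCm38.p6, another build than that of the expression files), was found in 14 of the 21 list members with a promoter entry (66.7%). The share was 3.79% of tested genes and 3.44% of all 32851 promoters, and 0 of 24 NRF2 list members held it. The motif was chosen after the values were seen, and a match is no proof of a bound site. These 4 promoters are shown because they carry the core and their genes were among those with an interaction beyond -4 (Ifit1 -4.45, Ifit3 -4.38 and Rsad2 -4.08, chosen after their values were seen). Capitals mark the core, as TTTCNNTTTC where it lies on the opposite strand, and in Isg15 3 overlapping matches form 1 run.
Isg15 (chr4:156200769-156201068, strand -): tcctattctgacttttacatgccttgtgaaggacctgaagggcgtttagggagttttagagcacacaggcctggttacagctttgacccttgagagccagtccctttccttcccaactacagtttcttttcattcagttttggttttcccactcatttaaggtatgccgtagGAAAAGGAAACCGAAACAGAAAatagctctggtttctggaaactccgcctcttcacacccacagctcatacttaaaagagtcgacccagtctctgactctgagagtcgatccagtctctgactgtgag
Ifit1 (chr19:34640639-34640938, strand +): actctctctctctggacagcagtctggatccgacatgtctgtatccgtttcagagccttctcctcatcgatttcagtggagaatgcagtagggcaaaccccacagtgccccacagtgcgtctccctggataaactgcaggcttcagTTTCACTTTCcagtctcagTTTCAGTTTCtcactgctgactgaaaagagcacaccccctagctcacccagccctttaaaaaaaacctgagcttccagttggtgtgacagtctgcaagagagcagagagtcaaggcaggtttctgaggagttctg
Ifit3 (chr19:34583279-34583578, strand +): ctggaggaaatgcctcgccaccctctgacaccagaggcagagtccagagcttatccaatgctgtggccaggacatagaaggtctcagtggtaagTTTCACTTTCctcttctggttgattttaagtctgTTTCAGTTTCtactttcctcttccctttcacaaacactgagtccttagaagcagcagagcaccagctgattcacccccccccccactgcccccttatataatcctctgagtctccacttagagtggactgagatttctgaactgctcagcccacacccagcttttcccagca
Rsad2 (chr12:26456403-26456702, strand -): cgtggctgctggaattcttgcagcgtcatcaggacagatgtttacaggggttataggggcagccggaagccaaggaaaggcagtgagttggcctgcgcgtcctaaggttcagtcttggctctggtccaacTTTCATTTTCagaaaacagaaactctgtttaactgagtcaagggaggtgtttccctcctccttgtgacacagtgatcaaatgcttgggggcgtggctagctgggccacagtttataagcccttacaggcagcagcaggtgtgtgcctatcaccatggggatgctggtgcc

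Antigen presentation by MHC class I, which interferons also induce, followed the same pattern in part. Of 14 tested members 7 were called negative and 0 positive (median -0.89), AT2-PBS was the farthest group in all 7 and set apart below in 6. BLM raised 11 of the 14 in Atg5f/f cells and 0 in Atg5-/- cells, and loss of Atg5 raised 9 with PBS and 0 with BLM. B2m, the light chain of class I molecules, was at 1074, 400.2 and 392 FPKM in AT2-PBS, 3219, 2457 and 1161 in Atg5-/- AT2-PBS, 4010.2, 2581 and 1168 in AT2-BLM and 3446, 1669.5 and 1549 in Atg5-/- AT2-BLM. AT2-PBS lay below the other 9 libraries, but the 3 other groups spread widely, and the interaction was -2.07 ± 0.77 (SE, adjusted p = 0.139). Psmb8, an immunoproteasome subunit, had an interaction of -1.74 ± 0.49 (SE, adjusted p = 0.0496), lost in the libraries without Y-linked expression (-1.32), and H2-Q4, a class Ib gene with close paralogs, one of -1.81 ± 0.55 (SE, adjusted p = 0.0683). The list count ranged from 4, without AT2-BLM replicate 1 and also without Atg5-/- AT2-PBS replicate 1, to 14 without Atg5-/- AT2-PBS replicate 3, and was 1 in the libraries without Y-linked expression. B2m lost its call without AT2-BLM replicate 1 (-1.66) or Atg5-/- AT2-PBS replicate 1 (-1.76), and with the Y-linked sum as a covariate (-0.94).

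MHC class II presentation had 2 of 9 members called positive and 2 negative, while 7 of the 9 interactions were above 0 (median 0.62). Fits without 1 library gave list medians from 0.06 to 0.94. Ciita, the class II transactivator, had an interaction of 1.04. It was 0.68 without Atg5-/- AT2-PBS replicate 3, and its call was lost without AT2-PBS replicate 1 and AT2-BLM replicate 3 together (0.89) and in the libraries without Y-linked expression (1.33). H2-Oa, a modulator of class II loading that was below 3 FPKM in every library, had -0.77, lost in 6 of the 12 fits that left out 1 library. The cathepsin Ctss, a lysosomal protease that processes the invariant chain in antigen-presenting cells, had the larger value of -4.58 ± 1.0 (SE, adjusted p = 0.0161). It was at 12.7, 1.73 and 5.78 FPKM in AT2-PBS, 243, 287 and 263 in Atg5-/- AT2-PBS, 28.7, 51.5 and 18.7 in AT2-BLM and 14.5, 109 and 95.2 in Atg5-/- AT2-BLM, and its highest group was the one with the most leukocyte transcript.

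Acute-phase and mucosal defence genes were called negative in 14 of 22 members and positive in 1, with 7 adjusted p under 0.05 and a median of -2.43. BLM raised 13 of them in Atg5f/f cells (median 1.43) and lowered 9 in Atg5-/- cells (median -0.62), and loss of Atg5 with PBS raised 16. Saa3, an acute-phase apolipoprotein made in inflamed lung, was at 0.204, 0.791 and 0 FPKM in AT2-PBS, 18.7, 16.4 and 14 in Atg5-/- AT2-PBS, 136, 154 and 22.8 in AT2-BLM and 11.1, 86 and 38.8 in Atg5-/- AT2-BLM. AT2-PBS was at or near 0 and below all other libraries, and the interaction was -4.94 ± 1.02 (SE, adjusted p = 0.0129). Cfb (chromosome 17 from 34993319 to 34999463), complement factor B of the alternative pathway, was at 2.11, 0.0572 and 0.123 FPKM in AT2-PBS, 31.1, 31.7 and 19.3 in Atg5-/- AT2-PBS, 21.8, 12.2 and 15.7 in AT2-BLM and 9.59, 11.5 and 7.73 in Atg5-/- AT2-BLM. It separated AT2-PBS from the other 9 libraries in the same way, with an interaction of -4.87 ± 0.53 (SE, adjusted p = 8.22e-04) and a BLM effect of 3.47 in Atg5f/f and -1.4 in Atg5-/- cells. Orm1 (interaction -6.14 ± 1.3 (SE, adjusted p = 0.0147)) and Saa1 (interaction -5.11 ± 1.31 (SE, adjusted p = 0.0347)) are made mainly in liver. Hepatocyte markers summed to 717, 12.2 and 4.07 FPKM in AT2-PBS, 2589 to 4473 in Atg5-/- AT2-PBS, 350.4 to 1039 in AT2-BLM and 239 to 1564 in Atg5-/- AT2-BLM. All 23 tested hepatocyte markers were called negative (median -4.81). Reg3g, S100a8 and S100a9 of the acute-phase list are also markers of club cells or neutrophils, whose lists had 6 of 8 and 10 of 10 negative calls. The part of other cells in these results was not tested.

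Genes of the TGF-beta pathway and matrix response were called negative in 4 of 19 members (21.1%, against 15.2% of all genes). The list median was -0.38, with 11 members below 0 and 8 above. AT2-PBS was the farthest group in all 4 called members. Spp1, which encodes the matrix phosphoprotein osteopontin, was at 10.2, 2.07 and 1.38 FPKM in AT2-PBS, 74.5, 154 and 53 in Atg5-/- AT2-PBS, 33.2, 90.5 and 73.7 in AT2-BLM and 12.7, 100.5 and 100.2 in Atg5-/- AT2-BLM, with AT2-PBS below the other 9 libraries and an interaction of -4.55 ± 1.1 (SE, adjusted p = 0.0264). Timp1, an inhibitor of matrix metalloproteinases, had an interaction of -4.02 ± 0.89 (SE, adjusted p = 0.0169), and Fn1 (fibronectin), which stayed below 6 FPKM in every library, one of -2.07 ± 0.68 (SE, adjusted p = 0.0909). With a pseudocount of 0.1 these became -6.75 and -3.54. The count was 6 without AT2-PBS replicate 1. Fibroblast and smooth muscle markers, at 40.3 to 85 summed FPKM in AT2-PBS, 148 to 159.9 in Atg5-/- AT2-PBS, 80.2 to 230.0 in AT2-BLM and 75.5 to 129.5 in Atg5-/- AT2-BLM, had 8 of 11 negative calls, and their part was not tested.

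Ly6a, the gene with the largest interaction by the rule for AT2-PBS, encodes the Sca-1 antigen against which the sort selects. Its BLM effect was 5.37 in Atg5f/f and -0.82 in Atg5-/- cells and its interaction -6.18 ± 1.1 (SE, adjusted p = 0.00583). The other gates were called as well, apart from Pecam1 (-0.84) and Epcam (0.37): Cd34 at -2.7 ± 0.34 (SE, adjusted p = 0.00141), Ptprc at -2.38 ± 0.36 (SE, adjusted p = 0.00269) and Cd24a, the gene of CD24, at -1.22 ± 0.38 (SE, adjusted p = 0.0728). Cd24a was at 11, 8.78 and 5.65 FPKM in AT2-PBS, 25.7, 35.8 and 27.8 in Atg5-/- AT2-PBS, 4.34, 6.89 and 2.96 in AT2-BLM and 7.51, 6.13 and 6.87 in Atg5-/- AT2-BLM, so that Atg5-/- AT2-PBS lay above all other libraries. Its call was lost in the libraries without Y-linked expression (-0.96), and with a pseudocount of 0.1 Cd34 and Ptprc had -4.32 and -4.25.

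In the opposite direction, genes in which AT2-PBS stood above the rest had positive interactions, a sign that the definition of this class fixes. In the 4 named by the rule, Bcan, Avpr1a, Ggcx and Tmem163, BLM lowered the gene in Atg5f/f cells, loss of Atg5 with PBS lowered it too, and BLM gave no call in Atg5-/- cells. The directions of the called contrasts follow from how the genes were chosen. Bcan (chromosome 3 from 87791453 to 87804278), a proteoglycan gene known from brain matrix, was at 9.36, 10.1 and 10.9 FPKM in AT2-PBS, 2.54, 3.61 and 3.18 in Atg5-/- AT2-PBS, 1.04, 1.05 and 0.925 in AT2-BLM and 4.71, 2.78 and 3.51 in Atg5-/- AT2-BLM. The 3 AT2-PBS libraries lay close together and clearly above any other, and the interaction was 2.64 ± 0.26 (SE, adjusted p = 6.16e-04). Avpr1a, the vasopressin receptor 1A, was at 14.3, 4.38 and 9.25 FPKM in AT2-PBS, 1.6, 1.5 and 1.44 in Atg5-/- AT2-PBS, 1.5, 0.855 and 0.311 in AT2-BLM and 3.73, 2.47 and 1.97 in Atg5-/- AT2-BLM and had an interaction of 2.91 ± 0.49 (SE, adjusted p = 0.00459). In AT2-PBS its replicate 2 was less than 1 FPKM above the highest other library. Ggcx, the vitamin K-dependent carboxylase, had an interaction of 2.29 ± 0.51 (SE, adjusted p = 0.0172), and Tmem163, a zinc transporter, one of 2.23 ± 0.60 (SE, adjusted p = 0.0408). Tmem163 was at 18.1, 44.5 and 58.7 FPKM in AT2-PBS and from 5.28 to 17 elsewhere, and its call was lost in the libraries without Y-linked expression (1.0), which leave AT2-PBS replicate 1.

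Surfactant and lamellar body genes were called positive in 5 of 13 members and negative in 1 (median 0.70), and BLM lowered 5 in Atg5f/f and 0 in Atg5-/- cells. AT2-PBS was the farthest group in 5 of the 6. Pla2g1b, a secreted phospholipase A2, was at 189, 179 and 166 FPKM in AT2-PBS, 125, 85 and 113 in Atg5-/- AT2-PBS, 76.3, 63.6 and 31.4 in AT2-BLM and 86.3, 73.6 and 69.97 in Atg5-/- AT2-BLM. AT2-PBS lay above the other 9 libraries, and the interaction was 1.24 ± 0.38 (SE, adjusted p = 0.0703). It was 0.82 without AT2-PBS replicate 1 and AT2-BLM replicate 3 together. Abca3, the lipid transporter of lamellar bodies, was at 150.1, 167 and 110.2 FPKM in AT2-PBS, 90.9, 77.4 and 105 in Atg5-/- AT2-PBS, 82.3, 100.5 and 114 in AT2-BLM and 114, 122 and 140.2 in Atg5-/- AT2-BLM, with overlapping groups and an interaction of 0.98 ± 0.26 (SE, adjusted p = 0.0417). The negative member was Sftpb, the surfactant protein B gene, with -1.96 ± 0.79 (SE, adjusted p = 0.174). Its AT2-PBS libraries were at 1777, 11572 and 2589.5 FPKM, and its call was lost in 5 of the 12 fits without 1 library (-1.86 to -1.42). The 5 positive calls became 3 without Atg5-/- AT2-PBS replicate 2.

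The largest class, 649 called genes, had Atg5-/- AT2-PBS above every other library. Plaur (chromosome 7 from 25247519 to 25260892), the urokinase receptor, was at 3.16, 1.16 and 0.825 FPKM in AT2-PBS, 59.8, 52.6 and 55.2 in Atg5-/- AT2-PBS, 9.5, 13.1 and 48.8 in AT2-BLM and 3.19, 9.18 and 7.42 in Atg5-/- AT2-BLM. The Atg5-/- AT2-PBS libraries lay above the other 9, though AT2-BLM replicate 3 came within a few FPKM. The interaction was -5.94 ± 0.73 (SE, adjusted p = 0.00141), from a BLM effect of 2.94 in Atg5f/f and -3.0 in Atg5-/- cells. Tyrobp, a signaling adaptor of myeloid cells, was at 17, 2.34 and 6.6 FPKM in AT2-PBS, 329, 376 and 273 in Atg5-/- AT2-PBS, 22.6, 38 and 18.1 in AT2-BLM and 16.4, 75.3 and 83.9 in Atg5-/- AT2-BLM. Its interaction was -4.5 ± 0.89 (SE, adjusted p = 0.0101), and it is itself 1 of the 12 leukocyte markers, of which 11 were called negative (median -3.66).

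Chemokines and cytokines were the function list that this group carried most. Of 23 tested members 14 were called negative, 11 with an adjusted p under 0.05, and 1 positive (median -2.05). Atg5-/- AT2-PBS was the farthest group in 13 of the 15 and set apart above in 10. Loss of Atg5 with PBS raised 14 members, BLM raised 8 in Atg5f/f cells, and BLM lowered 13 in Atg5-/- cells. Ccl6, a CC chemokine of myeloid cells, was at 12, 2.0 and 4.53 FPKM in AT2-PBS, 318, 233 and 296 in Atg5-/- AT2-PBS, 8.17, 37.1 and 10.1 in AT2-BLM and 9.99, 38.2 and 47.9 in Atg5-/- AT2-BLM, and its interaction was -4.74 ± 0.93 (SE, adjusted p = 0.00994). Cxcl2, a neutrophil attractant that epithelial cells and macrophages make, was at 6.38, 0.162 and 27 FPKM in AT2-PBS, 113, 85.6 and 73.2 in Atg5-/- AT2-PBS, 15.9, 16.4 and 4.27 in AT2-BLM and 4.1, 9.1 and 8.73 in Atg5-/- AT2-BLM. It overlapped between the other 3 groups, with a BLM effect of 0.90 in Atg5f/f and -3.5 in Atg5-/- cells and an interaction of -4.4 ± 1.23 (SE, adjusted p = 0.0482). Ccl2, the monocyte attractant, had an interaction of -4.6 ± 0.97 (SE, adjusted p = 0.0147) but reached 32.4, 25.6 and 6.85 FPKM in Atg5-/- AT2-PBS, with replicate 3 inside the range of AT2-BLM, and lost its call in the libraries without Y-linked expression (-2.83). Alveolar macrophage markers summed to 29.2 to 75.8 FPKM in AT2-PBS, 1221 to 1607 in Atg5-/- AT2-PBS, 85.2 to 174 in AT2-BLM and 71.1 to 266 in Atg5-/- AT2-BLM, with 14 of 14 negative calls. Neutrophil and monocyte markers summed to 42.9 to 151, 529 to 1809.9, 159.8 to 244 and 103 to 582 FPKM in the same order. Their part in the chemokine values was not tested. Because bulk RNA was measured, fewer cells of a type and less RNA per cell cannot be told apart.

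Lysosomal genes were called negative in 12 of 34 members, 7 with an adjusted p under 0.05 (median -0.38). BLM raised 14 in Atg5f/f cells and lowered 7 in Atg5-/- cells, and loss of Atg5 with PBS raised 11. AT2-PBS was the farthest group in 6 called members, Atg5-/- AT2-PBS in 4 and AT2-BLM in 2. Lipa, the lysosomal acid lipase, was at 1.53, 0.277 and 0.28 FPKM in AT2-PBS, 21.4, 16.7 and 15.7 in Atg5-/- AT2-PBS, 1.99, 3.15 and 2.46 in AT2-BLM and 0.866, 4.54 and 5.29 in Atg5-/- AT2-BLM. Atg5-/- AT2-PBS lay above the other 9 libraries and the interaction was -3.35 ± 0.58 (SE, adjusted p = 0.00545). Psap (prosaposin), the precursor of sphingolipid activator proteins, was at 25.8, 17.1 and 15.7 FPKM in AT2-PBS, 102, 124 and 99.3 in Atg5-/- AT2-PBS, 36.3, 43.5 and 55.3 in AT2-BLM and 28.7, 39.6 and 57.6 in Atg5-/- AT2-BLM, with the same order and an interaction of -2.57 ± 0.36 (SE, adjusted p = 0.00217). Ctsk of this list is also an alveolar macrophage marker, macrophages are rich in lysosomal enzymes, and the part of these cells was not tested. Under quantile normalization 8 members were called.

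Airway secretory transcripts also separated this group without being a function list. Club and goblet cell markers summed to 25676 to 85629 FPKM in Atg5-/- AT2-PBS, against 4945 to 11913 in AT2-PBS, 883 to 5029.9 in AT2-BLM and 1337 to 2176 in Atg5-/- AT2-BLM. BLM lowered 8 of 8 tested markers in Atg5-/- cells and 4 in Atg5f/f cells, and 6 were called for the interaction (median -3.38). In the libraries without Y-linked expression 3 were called. Lymphocyte markers had 5 of 6 negative calls, mesothelial markers 4 of 4, erythroid markers 4 of 5, ciliated cell markers 2 of 5, basal cell markers 2 of 2 and endothelial markers 1 of 8. Pancreas markers had 0 of 14 calls, with 3538 summed FPKM in AT2-PBS replicate 1 and 3439 and 3445 in Atg5-/- AT2-PBS replicates 1 and 2, and 7 calls without AT2-PBS replicate 1. AT2 markers had 2 positive and 1 negative call among 9.

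Genes with Atg5-/- AT2-PBS below the rest had positive interactions, which their definition fixes. Lipid synthesis held 3 of them, and no other function list held more than 1. Of 30 tested genes of fatty acid and cholesterol synthesis 8 were called positive and 0 negative (median 0.44), 1 of them with an adjusted p under 0.05. BLM lowered 7 in Atg5f/f cells and raised 8 in Atg5-/- cells, and loss of Atg5 with PBS lowered 6 and with BLM raised 3. The farthest group was AT2-PBS in 3, Atg5-/- AT2-PBS in 3 and AT2-BLM in 2 called members. Fasn (chromosome 11 from 120667254 to 120685492), the fatty acid synthase, was at 134, 153 and 102 FPKM in AT2-PBS, 56.4, 61.6 and 78.7 in Atg5-/- AT2-PBS, 90.2, 82.8 and 99.5 in AT2-BLM and 94.3, 152 and 167 in Atg5-/- AT2-BLM. The 3 Atg5-/- AT2-PBS libraries lay below the other 9, and the interaction was 1.53 ± 0.32 (SE, adjusted p = 0.013), from BLM effects of -0.50 in Atg5f/f and 1.03 in Atg5-/- cells.

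Acly, which makes cytosolic acetyl-CoA from citrate, was at 233, 249.7 and 162 FPKM in AT2-PBS, 106, 95 and 133 in Atg5-/- AT2-PBS, 133, 134 and 101 in AT2-BLM and 219, 97.1 and 151 in Atg5-/- AT2-BLM, and its interaction was 1.21 ± 0.38 (SE, adjusted p = 0.0818). Acaca, the acetyl-CoA carboxylase that commits it to fatty acids, was at 7.48, 7.91 and 4.43 FPKM in AT2-PBS, 4.75, 3.65 and 5.94 in Atg5-/- AT2-PBS, 2.87, 2.39 and 2.01 in AT2-BLM and 6.12, 5.43 and 3.38 in Atg5-/- AT2-BLM. For Acaca the AT2-BLM libraries lay below the other 9, loss of Atg5 with BLM gave 0.78, and the interaction was 1.16 ± 0.36 (SE, adjusted p = 0.0696). Dhcr7, the last enzyme of cholesterol synthesis, had 1.28 ± 0.51 (SE, adjusted p = 0.169), with its call lost without AT2-BLM replicate 3, AT2-PBS replicate 2 or Atg5-/- AT2-BLM replicate 1 (0.89 to 1.13). The desaturases Fads1, Fads2 and Fads3 had interactions of 0.64, 0.54 and 0.37 and no call. The list's count of 8 was 4 without AT2-PBS replicate 2 and 12 without AT2-PBS replicate 3 or Atg5-/- AT2-BLM replicate 2, 5 without Atg5-/- AT2-BLM replicate 1 or Atg5-/- AT2-PBS replicate 1, and 22 in the libraries without Y-linked expression.

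Of the other genes in this class, Dock1, a guanine nucleotide exchange factor for Rac, was at 12.4, 11.1 and 8.91 FPKM in AT2-PBS, 4.66, 4.94 and 6.04 in Atg5-/- AT2-PBS, 7.5, 6.91 and 10.5 in AT2-BLM and 12.1, 9.25 and 10.5 in Atg5-/- AT2-BLM, with Atg5-/- AT2-PBS below every other library and an interaction of 1.25 ± 0.27 (SE, adjusted p = 0.0155). The Polycomb gene Cbx6 had 1.13 ± 0.31 (SE, adjusted p = 0.0464), lost in the libraries without Y-linked expression (0.50), and Sh3bgr had 1.09 ± 0.26 (SE, adjusted p = 0.0255). BLM raised all 4 genes named here, Fasn included, in Atg5-/- cells by 1.03, 0.90, 0.58 and 0.92, a direction that their choice fixes.

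**Figure D4:**
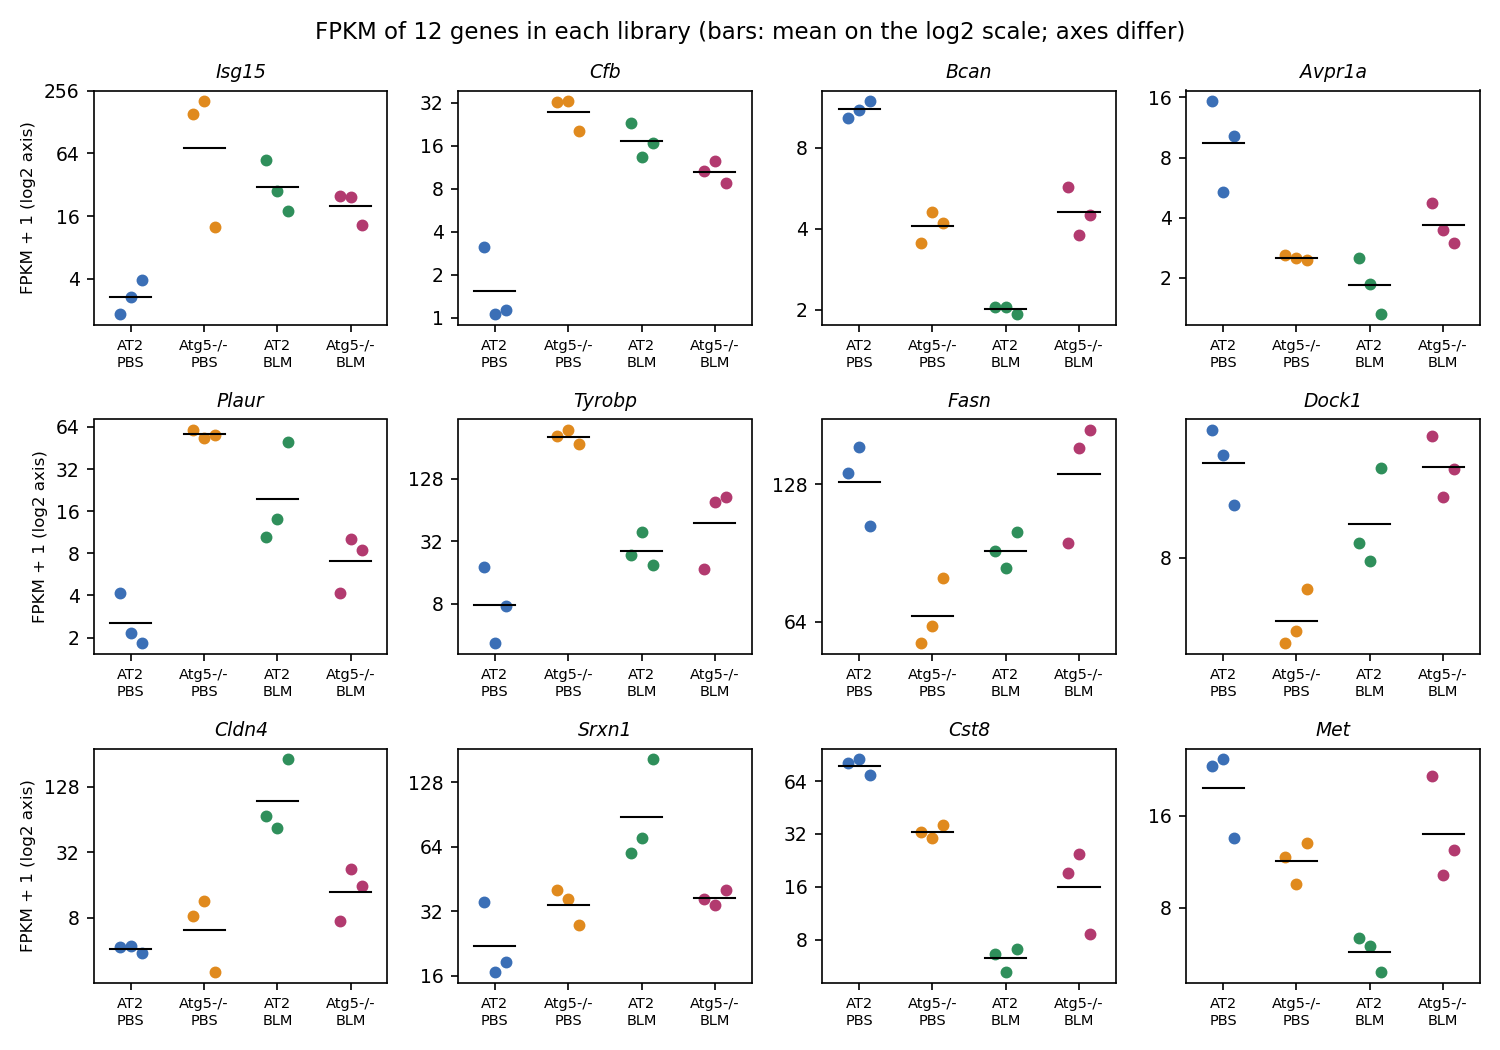
FPKM + 1 of 12 genes in each of the 12 libraries on log2 axes that differ between panels, with bars at the group means on the log2 scale. The top row shows genes in which AT2-PBS stands apart, the middle row Atg5-/- AT2-PBS above (Plaur, Tyrobp) or below (Fasn, Dock1) the rest, and the bottom row AT2-BLM above (Cldn4, Srxn1) or below (Cst8, Met).

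AT2-BLM stood apart from all 3 other groups in 137 called genes above and 72 below. Cldn4 (chromosome 5 from 135420996 to 135422804), a tight junction claudin and a marker of the transitional state between AT2 and AT1 cells, was at 3.34, 3.45 and 2.78 FPKM in AT2-PBS, 7.32, 10.5 and 1.55 in Atg5-/- AT2-PBS, 68.7, 52.9 and 228 in AT2-BLM and 6.43, 21.5 and 14.6 in Atg5-/- AT2-BLM. The AT2-BLM libraries lay above the other 9, the interaction was -3.37 ± 0.86 (SE, adjusted p = 0.034), and the contrast of Atg5-/- AT2-BLM against AT2-BLM was -2.79. Fam46b was at 0.569, 0.0609 and 0.105 FPKM in AT2-PBS, 3.95, 2.28 and 1.35 in Atg5-/- AT2-PBS, 10.4, 10.4 and 31 in AT2-BLM and 0.822, 4.96 and 4.74 in Atg5-/- AT2-BLM and had an interaction of -3.48 ± 0.71 (SE, adjusted p = 0.0119). Rnd1, an atypical small GTPase, was at most 5.75 FPKM and had -2.31 ± 0.37 (SE, adjusted p = 0.00376). Both low genes depend on the pseudocount, with -5.52 and -4.37 at 0.1.

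Markers of AT1 cells and of the transitional state were called negative in 7 of 20 members and positive in 0, 3 with an adjusted p under 0.05 (median -0.62). BLM raised 14 in Atg5f/f cells (median 1.14) and 9 in Atg5-/- cells (median 0.61). Loss of Atg5 with BLM lowered 12 of the 20 (median -0.81), where 3.12% of all genes were lower. In this contrast 0 members had an adjusted p under 0.05. AT2-BLM was the farthest group in 5 of the 7. Ctgf, a matricellular target of YAP and TGF-beta, was at 4.26, 1.87 and 2.71 FPKM in AT2-PBS, 6.64, 11.4 and 7.81 in Atg5-/- AT2-PBS, 16.4, 7.41 and 55.3 in AT2-BLM and 2.75, 7.13 and 11 in Atg5-/- AT2-BLM, with AT2-BLM replicate 2 inside the range of the other groups and an interaction of -2.8 ± 0.83 (SE, adjusted p = 0.0623). Pdpn (podoplanin), an AT1 membrane protein, was at 6.57, 4.95 and 1.0 FPKM in AT2-PBS, 14.6, 17.2 and 7.57 in Atg5-/- AT2-PBS, 37.9, 31.2 and 62.5 in AT2-BLM and 19.5, 32.4 and 27.6 in Atg5-/- AT2-BLM. Here AT2-PBS lay below all others, and the interaction was -2.26 ± 0.64 (SE, adjusted p = 0.0529). Krt19 of this list is also a mesothelial marker, and mesothelial markers summed to 367 FPKM in AT2-BLM replicate 3 against 84.6 and 82.9 in replicates 1 and 2. Without that library 6 members were called.

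Targets of p53 and senescence genes were called negative in 10 of 18 members and positive in 0, 6 with an adjusted p under 0.05 (median -1.01). The transcription factor p53 answers DNA damage of the kind BLM causes. BLM raised 13 members in Atg5f/f and 5 in Atg5-/- cells, and loss of Atg5 lowered 11 with BLM and raised 5 with PBS. Of the 11 lowered with BLM, 0 had an adjusted p under 0.05. AT2-BLM was the farthest group in 6 of the 10 and AT2-PBS in 4. Phlda3, a p53 target that restrains AKT, was at 3.95, 4.43 and 4.62 FPKM in AT2-PBS, 21.8, 27.6 and 14.8 in Atg5-/- AT2-PBS, 166, 135 and 155 in AT2-BLM and 44.6, 64.9 and 54.2 in Atg5-/- AT2-BLM. The 4 groups did not overlap, in the order AT2-PBS, Atg5-/- AT2-PBS, Atg5-/- AT2-BLM and AT2-BLM, and BLM raised it by 4.84 in Atg5f/f and by 1.33 in Atg5-/- cells. Its interaction was -3.5 ± 0.29 (SE, adjusted p = 1.76e-04).

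Cdkn1a (p21), the cell cycle inhibitor, was at 73.7, 18.7 and 30.6 FPKM in AT2-PBS, 66.4, 99.5 and 73.5 in Atg5-/- AT2-PBS, 303, 238 and 276 in AT2-BLM and 107, 131 and 137 in Atg5-/- AT2-BLM. AT2-BLM was highest without overlap, BLM raised it by 2.92 in Atg5f/f cells, its BLM effect in Atg5-/- cells was 0.65 without a call, and the interaction was -2.27 ± 0.52 (SE, adjusted p = 0.0193). Gdf15, a stress cytokine, was at 24.7, 7.8 and 9.68 FPKM in AT2-PBS, 85.1, 137 and 72.9 in Atg5-/- AT2-PBS, 223, 219 and 140.1 in AT2-BLM and 87.6, 97.6 and 56.5 in Atg5-/- AT2-BLM. AT2-PBS was lowest without overlap and AT2-BLM highest by a narrow margin over Atg5-/- AT2-PBS, and the interaction was -4.1 ± 0.54 (SE, adjusted p = 0.00177). In the libraries without Y-linked expression 8 members of the list were called negative and 1 positive, and Cdkn1a had -1.41. No other setting of those tried took the list below 7 negative calls.

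NRF2 targets and glutathione genes were called negative in 22 of 29 members and positive in 0, 13 with an adjusted p under 0.05 (median -1.02). They detoxify peroxides and conjugate electrophiles. BLM raised 22 in Atg5f/f cells, and in Atg5-/- cells it raised 1 and lowered 7. Loss of Atg5 raised 15 with PBS and lowered 11 with BLM, the latter with 0 adjusted p under 0.05. No one group carried the list, since AT2-PBS was the farthest in 10 called members, AT2-BLM in 8 and Atg5-/- AT2-PBS in 4. Counts without any 1 library ranged from 18 to 23.

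Srxn1 (sulfiredoxin), which repairs oxidized peroxiredoxins, was at 34.3, 15.7 and 17.5 FPKM in AT2-PBS, 39, 35.5 and 26.7 in Atg5-/- AT2-PBS, 59.2, 69.3 and 163 in AT2-BLM and 35.7, 33.2 and 39.4 in Atg5-/- AT2-BLM. AT2-BLM lay above the other 9 libraries, with replicate 3 well above the others, and the interaction was -1.89 ± 0.50 (SE, adjusted p = 0.0396). In the libraries without Y-linked expression, which drop AT2-BLM replicate 3, it was -0.79 and not called. Nqo1, the quinone reductase, was at 2.46, 2.7 and 2.26 FPKM in AT2-PBS, 16.9, 15 and 12.6 in Atg5-/- AT2-PBS, 15.5, 14.9 and 42.8 in AT2-BLM and 10.8, 11.3 and 7.16 in Atg5-/- AT2-BLM. AT2-PBS lay below all others and AT2-BLM replicate 3 was again highest, and the interaction was -3.27 ± 0.46 (SE, adjusted p = 0.00217). Gsto1, an omega class glutathione transferase, had -4.44 ± 0.72 (SE, adjusted p = 0.00376) with AT2-BLM at 35.9, 29.3 and 121 FPKM and Atg5-/- AT2-PBS at 55.9, 91.6 and 115. Gsta2, an alpha class transferase whose reads may be shared with close paralogs such as Gsta1, had -3.17 ± 0.73 (SE, adjusted p = 0.0204), and -5.82 with a pseudocount of 0.1. Liver is rich in these transferases, and hepatocyte markers were highest in Atg5-/- AT2-PBS. Their part was not tested.

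The antioxidant response element that NRF2 binds was searched by its core TGACNNNGC in the same promoters. It was present in 10 of the 24 list members with an entry (41.7%), in 28.6% of the interferon list, in 17.1% of tested genes and in 12.4% of all promoters. This short core is frequent by itself, so single matches say little. Only these letters were searched, so other spellings of the element stay unmarked below and a marked stretch need not be the element that NRF2 uses. Promoters of called members that carry it are shown to set them beside the interferon promoters, Srxn1 with the core just after the start, Ugdh (interaction -1.08) with 2 copies before it and Gsta3 (-2.22) with 1, the latter pair chosen after their values were seen. Capitals mark the core, as GCNNNGTCA on the opposite strand.
Srxn1 (chr2:152105274-152105573, strand +): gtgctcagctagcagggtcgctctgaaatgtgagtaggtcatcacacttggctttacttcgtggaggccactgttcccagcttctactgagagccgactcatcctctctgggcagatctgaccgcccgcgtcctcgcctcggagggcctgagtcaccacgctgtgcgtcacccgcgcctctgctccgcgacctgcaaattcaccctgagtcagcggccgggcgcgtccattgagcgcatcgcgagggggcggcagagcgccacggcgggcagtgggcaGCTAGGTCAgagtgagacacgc
Ugdh (chr5:65435793-65436092, strand -): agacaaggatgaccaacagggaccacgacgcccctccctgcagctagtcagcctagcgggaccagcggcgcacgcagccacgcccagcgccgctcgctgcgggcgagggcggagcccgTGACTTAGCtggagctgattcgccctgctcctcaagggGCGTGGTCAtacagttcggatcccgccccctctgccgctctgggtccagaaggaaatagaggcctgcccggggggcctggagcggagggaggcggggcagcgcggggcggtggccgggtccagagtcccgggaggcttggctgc
Gsta3 (chr1:21240335-21240634, strand +): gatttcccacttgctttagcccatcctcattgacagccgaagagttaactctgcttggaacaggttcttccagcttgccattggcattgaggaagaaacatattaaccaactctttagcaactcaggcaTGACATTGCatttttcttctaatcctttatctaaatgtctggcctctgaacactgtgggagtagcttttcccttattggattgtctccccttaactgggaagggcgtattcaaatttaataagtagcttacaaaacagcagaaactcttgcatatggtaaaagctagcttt

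Genes with AT2-BLM below the other groups had positive interactions, again a sign fixed by definition. Cst8 (chromosome 2 from 148624521 to 148631331), a cystatin of the protease inhibitor family, was at 80.6, 84.2 and 67.8 FPKM in AT2-PBS, 31.8, 29.4 and 34.8 in Atg5-/- AT2-PBS, 5.66, 4.24 and 6.06 in AT2-BLM and 18.1, 23.7 and 7.58 in Atg5-/- AT2-BLM. All AT2-BLM libraries lay below the other 9 and all AT2-PBS libraries above them, and the interaction was 2.6 ± 0.43 (SE, adjusted p = 0.00429), with BLM effects of -3.64 in Atg5f/f and -1.05 in Atg5-/- cells. Met, the receptor of hepatocyte growth factor, was at 22.2, 23.4 and 12.5 FPKM in AT2-PBS, 10.7, 8.59 and 12 in Atg5-/- AT2-PBS, 5.37, 5.02 and 3.94 in AT2-BLM and 20.5, 9.28 and 11.3 in Atg5-/- AT2-BLM. Its BLM effect was -1.78 in Atg5f/f cells, a fall, and 0.30 without a call in Atg5-/- cells, and the interaction was 2.08 ± 0.41 (SE, adjusted p = 0.00994). Bpifb5, of a family of secreted lipid-binding proteins, had 2.04 ± 0.50 (SE, adjusted p = 0.029) and Sap25, a component of a histone deacetylase complex, 1.59 ± 0.33 (SE, adjusted p = 0.0125). Atg5-/- AT2-BLM exceeded AT2-BLM in the 4 by 1.35, 1.28, 1.2 and 1.08, a direction fixed by the way they were chosen.

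Wnt signaling genes were called positive in 9 of 24 members and negative in 1, 4 with an adjusted p under 0.05 (median 0.49). BLM lowered 9 in Atg5f/f cells, and in Atg5-/- cells it raised 4 and lowered 1. Loss of Atg5 lowered 5 with PBS and raised 4 with BLM. The farthest group was AT2-BLM in 4, AT2-PBS in 3 and Atg5-/- AT2-PBS in 3. Tcf7l1, a TCF transcription factor that acts mainly as a repressor, was at 7.06, 5.27 and 7.26 FPKM in AT2-PBS, 4.85, 2.65 and 5.73 in Atg5-/- AT2-PBS, 1.96, 1.7 and 2.3 in AT2-BLM and 5.03, 5.38 and 3.58 in Atg5-/- AT2-BLM. AT2-BLM lay below the other 9 libraries and the interaction was 1.42 ± 0.34 (SE, adjusted p = 0.0236). The ligand Wnt3a was at 5.2, 5.62 and 3.93 FPKM in AT2-PBS, above every other library, and had 1.37 ± 0.38 (SE, adjusted p = 0.0483). Rnf43, a ubiquitin ligase that removes Wnt receptors, was at 3.96, 3.62 and 3.37 FPKM in AT2-PBS, 0.948, 1.96 and 2.75 in Atg5-/- AT2-PBS, 1.71, 2.18 and 1.95 in AT2-BLM and 5.1, 2.82 and 2.58 in Atg5-/- AT2-BLM, with 1.31 ± 0.36 (SE, adjusted p = 0.0477). The list count was 5 without Atg5-/- AT2-BLM replicate 1 or Atg5-/- AT2-PBS replicate 1, 6 without Atg5-/- AT2-PBS replicate 2 or AT2-PBS replicate 1, and 12 under quantile normalization.

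Atg5-/- AT2-BLM was the group that stood apart least. By the naming rule, 0 genes above and 1 below had an adjusted p under 0.05 there. Pgrmc1 (chromosome X from 34138201 to 34146074), a heme-binding membrane protein of steroid metabolism, was at 22.1, 31.1 and 33.1 FPKM in AT2-PBS, 59.1, 66.2 and 60.1 in Atg5-/- AT2-PBS, 30.1, 23.9 and 79.5 in AT2-BLM and 12.1, 15.6 and 21.2 in Atg5-/- AT2-BLM. The Atg5-/- AT2-BLM libraries lay below the other 9, though replicate 3 was within 1 FPKM of the lowest AT2-PBS library, and the interaction was -2.33 ± 0.51 (SE, adjusted p = 0.0161). BLM lowered Pgrmc1 in Atg5-/- cells (BLM effect -1.89) and had an effect of 0.44 without a call in Atg5f/f cells. Myc, the growth-promoting transcription factor, was at 25, 8.81 and 10.4 FPKM in AT2-PBS, 15, 16.4 and 11.9 in Atg5-/- AT2-PBS, 6.74, 5.46 and 19.5 in AT2-BLM and 3.34, 1.37 and 3.43 in Atg5-/- AT2-BLM. It too was lowest in Atg5-/- AT2-BLM without overlap, with an interaction of -1.6 ± 0.64 (SE, adjusted p = 0.169). Its call was lost without AT2-BLM replicate 3 (-1.09), AT2-PBS replicates 2 or 3, Atg5-/- AT2-BLM replicate 2 or Atg5-/- AT2-PBS replicate 2 (-1.51 to -1.30), and its direction turned in the libraries without Y-linked expression (0.061).

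AP-1 and immediate early genes, to which Myc was assigned, answer stress and also the handling of cells. They were called negative in 4 of 26 members (15.4%), close to the 15.2% of all genes, with a median of -0.61. BLM lowered 11 in Atg5f/f and 16 in Atg5-/- cells. Sgk1, a kinase induced by stress and steroids, was at 24.1, 6.32 and 9.74 FPKM in AT2-PBS, 52.5, 52.1 and 45 in Atg5-/- AT2-PBS, 5.83, 7.93 and 26.6 in AT2-BLM and 2.08, 5.35 and 7.44 in Atg5-/- AT2-BLM, with Atg5-/- AT2-PBS above the rest and an interaction of -3.13 ± 0.77 (SE, adjusted p = 0.0284). The AP-1 subunit Junb had -1.17 and lost its call in 8 of the 12 fits without 1 library (-1.23 to -0.72, the latter without AT2-PBS replicate 2), and it turned positive in the libraries without Y-linked expression (0.07). The list count was 12 without AT2-PBS replicate 1, whose summed level of 6520.4 FPKM stood against 1815 and 3104 in replicates 2 and 3, 2 without several others and 1 without replicate 2 of Atg5-/- AT2-PBS or of AT2-PBS.

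**Figure D5:**
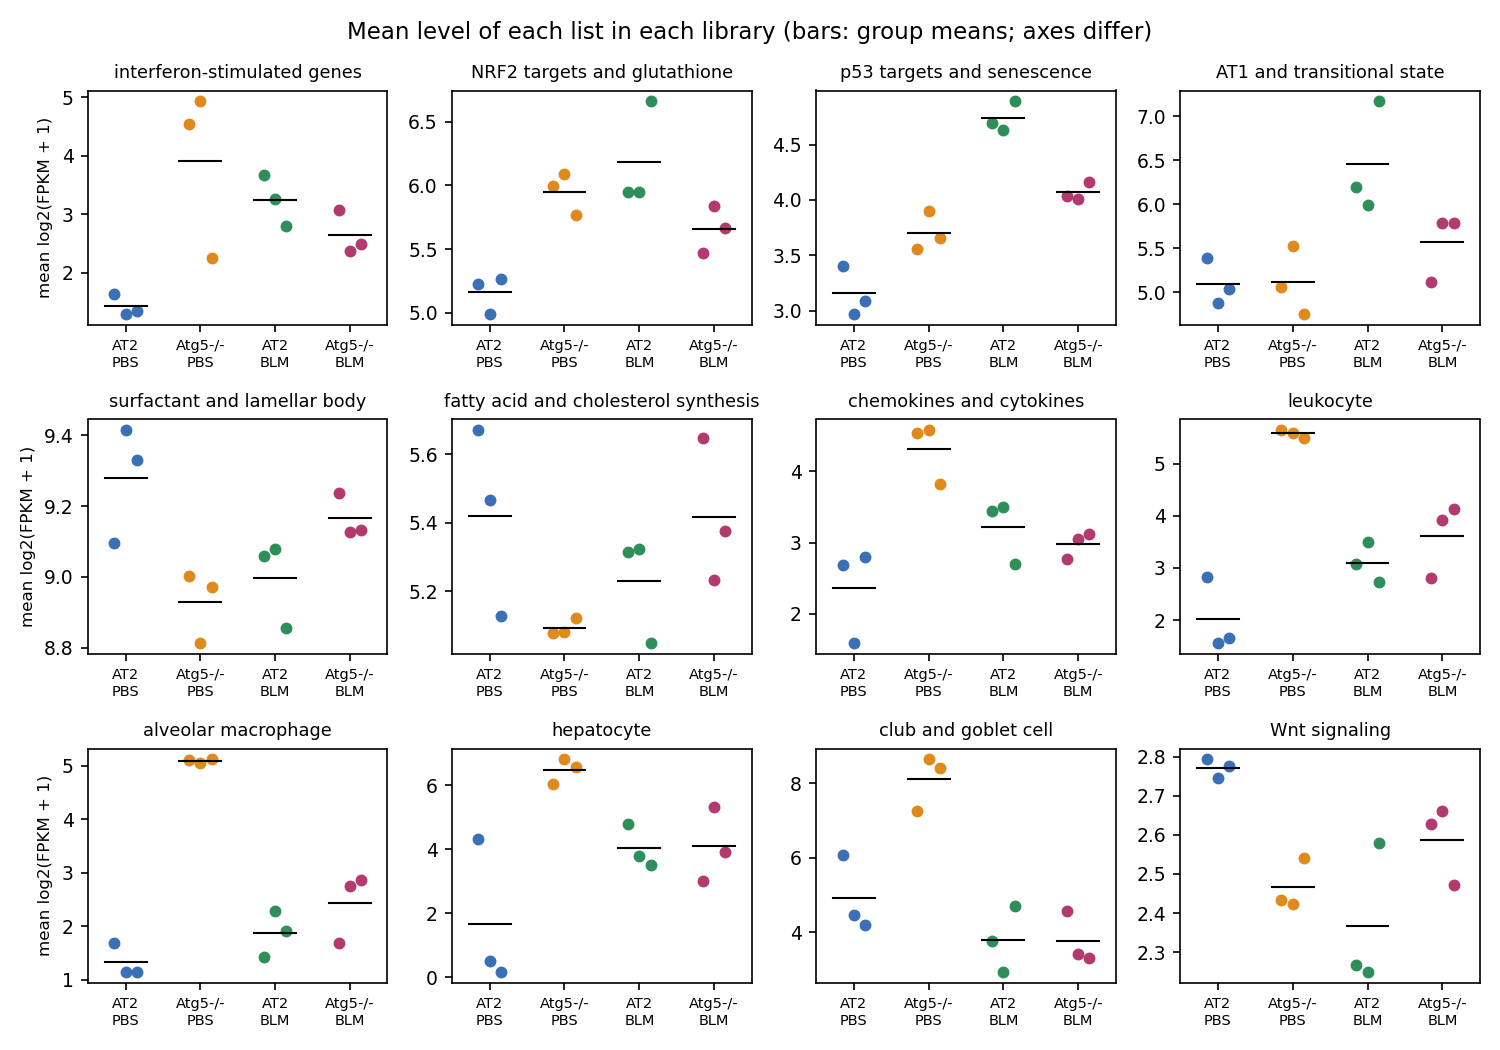
Mean log2(FPKM + 1) over the tested members of 12 lists in each of the 12 libraries, with bars at group means and axes that differ between panels. By all 3 libraries, interferon-stimulated genes are lowest in AT2-PBS, p53 targets and AT1 markers highest in AT2-BLM, and the chemokine, leukocyte, macrophage, hepatocyte and club cell panels highest in Atg5-/- AT2-PBS.

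Energy metabolism, which the study addressed in these cells, was called in part. Glycolysis and lactate genes were negative in 8 of 24 members and positive in 0 (median -0.48), with BLM raising 10 in Atg5f/f and 2 in Atg5-/- cells. Eno1, the enolase of glycolysis, was at 57.1, 26.9 and 30.7 FPKM in AT2-PBS, 101, 107 and 72.8 in Atg5-/- AT2-PBS, 122, 144 and 301 in AT2-BLM and 36.1, 105 and 109 in Atg5-/- AT2-BLM. The interaction was -2.54 ± 0.63 (SE, adjusted p = 0.0289), and AT2-BLM replicate 3 was highest of all libraries. Pgam1, a phosphoglycerate mutase, had -0.79 ± 0.26 (SE, adjusted p = 0.0854), and -0.52 without AT2-PBS replicate 1 and AT2-BLM replicate 3, with AT2-BLM above the other 9 libraries. Aldoa, the muscle type aldolase, had -0.71 ± 0.24 (SE, adjusted p = 0.107), which was -0.42 and no call under quantile normalization. Slc16a3, the lactate exporter, reached 12.2, 10.8 and 6.94 FPKM in the Atg5-/- AT2-PBS libraries but at most 1.44 elsewhere, had -2.82 ± 0.43 (SE, adjusted p = 0.00316) (-4.41 with a pseudocount of 0.1), and is also well expressed in leukocytes. Pgam2, the muscle paralog of Pgam1, had -1.6, lost in 6 of the 12 fits without 1 library. Quantile normalization left 4 negative and 1 positive calls in the list.

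The pentose phosphate pathway, which makes NADPH and ribose, had 3 of 9 members called negative (median -0.07). Taldo1 (transaldolase) was at 157, 142 and 183 FPKM in AT2-PBS, 347, 338 and 275 in Atg5-/- AT2-PBS, 327, 316 and 528 in AT2-BLM and 213, 311 and 284 in Atg5-/- AT2-BLM. AT2-PBS lay below all others and the interaction was -1.5 ± 0.31 (SE, adjusted p = 0.0123). G6pdx, the enzyme that opens the pathway, was at 33, 29.3 and 30.2 FPKM in AT2-PBS, 41.6, 38.7 and 39.6 in Atg5-/- AT2-PBS, 56.3, 54.9 and 89.4 in AT2-BLM and 45.2, 29.96 and 51.3 in Atg5-/- AT2-BLM, with AT2-BLM above the other 9 libraries and -1.02 ± 0.30 (SE, adjusted p = 0.0638) (-0.56 in the libraries without Y-linked expression). Pgd, the next dehydrogenase, had -0.69 ± 0.24 (SE, adjusted p = 0.113), lost under quantile normalization (-0.46). Loss of Atg5 lowered 2 members with BLM and 0 with PBS. Several of these enzymes are also NRF2 targets, and G6pdx stands in both lists.

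Mitochondrial metabolism held few calls. The TCA cycle had 1 positive (Suclg1, 0.68) and 1 negative (Fh1, -0.68) of 22, and fatty acid oxidation 1 positive (Acsl5, an acyl-CoA synthetase, 0.74) and 1 negative (Cpt2, -0.75) of 26. In the respiratory chain 2 of 49 were negative, Cox5a (-0.81) and Uqcrq (-0.72). Fits without 1 library ended the call of Suclg1 in 3, of Fh1 in 3, of Cpt2 in 4, of Cox5a in 5 and of Uqcrq in 9 of 12 cases. In the libraries without Y-linked expression Suclg1 had 0.28, Fh1 -0.62 and Cpt2 -0.09, all without a call. BLM raised 14 respiratory chain genes in Atg5f/f and 1 in Atg5-/- cells, and the list median was -0.34. Its count rose to 16 without Atg5-/- AT2-BLM replicate 2 and to 31 in the libraries without Y-linked expression, which also lack that library, and was 0 without any 1 of AT2-BLM replicate 3, AT2-PBS replicate 2, Atg5-/- AT2-BLM replicate 1 and Atg5-/- AT2-PBS replicates 1 and 2.

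Cytosolic ribosomal proteins behaved likewise, with 1 of 62 called (Rps20, -0.68, lost in 9 of 12 fits), 42 without Atg5-/- AT2-BLM replicate 2 and 49 in the libraries without Y-linked expression. That library had the group's highest summed ribosomal level, 21132 FPKM against 11066 and 14027. In 59 of the 62 ribosomal genes the interaction was below 0, with a median of -0.44 against -0.09 over all genes. Proteasome genes were called negative in 5 of 31 members (16.1%), near the share of all genes, and BLM raised 21 in Atg5f/f and 1 in Atg5-/- cells. The interaction was below 0 in 31 of 31 proteasome members, with a median of -0.38 against -0.09 over all genes. The share of all genes below 0 is not given here, so the ribosomal and proteasome counts below 0 lack a background. Values near 0 also depend on scaling. Quantile normalization moved the median of all genes to 0.15 and Rps20 to -0.48. Psmd14, a deubiquitinase of the 19S lid, was at 26.7, 24.6 and 26.1 FPKM in AT2-PBS, 38.1, 36 and 35.2 in Atg5-/- AT2-PBS, 53.5, 56.5 and 62.3 in AT2-BLM and 35.5, 45.9 and 48.6 in Atg5-/- AT2-BLM. AT2-PBS was lowest and AT2-BLM highest without overlap, and the interaction was -0.89 ± 0.19 (SE, adjusted p = 0.0163). Psmc5, a 19S ATPase, had -0.68 ± 0.18 (SE, adjusted p = 0.0382), lost under quantile normalization (-0.46), and Psmb5, the chymotrypsin-like subunit, -0.78, lost in 6 of 12 fits. The proteasome count was 12 without Atg5-/- AT2-BLM replicate 2, 9 without Atg5-/- AT2-PBS replicate 3, 2 without Atg5-/- AT2-BLM replicate 1 and 3 without Atg5-/- AT2-PBS replicate 1.

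Core autophagy genes and cargo receptors, the pathway that the deletion targets, were called negative in 3 of 35 members (8.57%) with a median of 0.00, and loss of Atg5 with PBS changed 0 of them. Sqstm1 was at 500.3, 223 and 303 FPKM in AT2-PBS, 392, 512 and 357 in Atg5-/- AT2-PBS, 521, 508 and 702 in AT2-BLM and 385, 355 and 398 in Atg5-/- AT2-BLM. Its interaction was -0.95 ± 0.37 (SE, adjusted p = 0.153), BLM raised it by 0.82 in Atg5f/f cells, and loss of Atg5 with BLM lowered it by 0.59 on the log2 scale. The call was lost without AT2-BLM replicate 3 (-0.80), Atg5-/- AT2-PBS replicate 2 (-0.80) or AT2-PBS replicate 2 (-0.68), under quantile normalization (-0.62) and with the Y-linked covariate (-0.83), and the value was -0.15 in the libraries without Y-linked expression. Uvrag, a regulator of the PI3-kinase complex, had -0.79, lost under quantile normalization (-0.57), with the Y-linked covariate (-0.62) and in the libraries without Y-linked expression (-0.19). Gabarapl1, an ATG8 homolog, had -0.64, lost in 8 of 12 fits, at -0.39 without AT2-PBS replicate 2, and -0.15 in the libraries without Y-linked expression. The list count was 1 without AT2-BLM replicate 3, Atg5-/- AT2-PBS replicate 2 or AT2-PBS replicate 2, 0 in the libraries without Y-linked expression and 0 under quantile normalization.

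Genes of ER folding and the unfolded protein response were called positive in 3 of 30 members and negative in 1 (median 0.14). AT2-PBS was set apart above in the 3 positive ones, of which Eif2ak3 (PERK, 1.1) and Derl3, of ER-associated degradation (1.09), stayed below 5 FPKM in every library. The negative one, Trib3, a stress-induced pseudokinase, had -1.02 and turned to 0.00798 in the libraries without Y-linked expression. Tight junction and adhesion genes held 1 positive (Pard3, a polarity protein, 1.07) and 1 negative call (Cldn4, above) of 22. Ion channels and fluid clearance held 1 positive (Slc12a2, 0.84) and 2 negative calls (Aqp1, -1.71, and Atp1b3, -0.52) of 16. Splicing had Srsf7 (0.55) and Snrpd1 (-0.71) called among 30. Calls of Eif2ak3, Derl3, Slc12a2, Atp1b3, Srsf7 and Snrpd1 were lost in 5, 4, 6, 2, 8 and 3 of the 12 fits without 1 library, and those of Pard3 and Trib3 in 0. Snrpd1 had -0.46 without Atg5-/- AT2-BLM replicate 1 and Srsf7 0.35 without AT2-BLM replicate 3. In the libraries without Y-linked expression the calls of Eif2ak3 (1.02), Derl3 (0.70), Pard3 (0.95), Slc12a2 (0.27), Atp1b3 (-0.50) and Srsf7 (0.39) were lost. The values of Eif2ak3, Pard3 and Atp1b3 kept most of their size there.

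Cell cycle and DNA replication genes responded to BLM in both genotypes. BLM raised 22 of 27 tested members in Atg5f/f cells (median 1.24) and 14 in Atg5-/- cells (median 0.63), against 20.6% and 7.66% of all genes. The interaction was called in 1 positive (Bub1, a spindle checkpoint kinase, 0.93) and 1 negative member (Mcm3, of the replicative helicase, -1.0), each lost in 6 of 12 fits without 1 library, with a list median of -0.24. The summed level of the list was 101 to 149 FPKM in AT2-PBS, 101 to 154 in Atg5-/- AT2-PBS, 229 to 356 in AT2-BLM and 210.0 to 400.4 in Atg5-/- AT2-BLM, so that the BLM groups overlapped. A list with few calls does not show that the genotypes responded alike.

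The KEGG pathways in the deposited table gave a grouping that was not chosen by hand. Among 262 pathways with at least 20 tested genes, the highest shares of negative calls were in complement and coagulation cascades (47 of 58, median -2.24), retinol metabolism (30 of 41, -1.83), chemical carcinogenesis (39 of 54, -1.67), metabolism of xenobiotics by cytochrome P450 (32 of 45, -1.48) and steroid hormone biosynthesis (24 of 34, -2.0). Their called members include fibrinogen, serpin, cytochrome P450 and UDP-glucuronosyltransferase genes that liver expresses most. Among their genes called in either direction, Atg5-/- AT2-PBS was the farthest group in 32, 25, 24, 18 and 19. Hepatocyte markers were highest in the same group, and their part was not tested. The highest positive shares were lower and stood beside negative calls. They were in basal cell carcinoma (7 positive and 6 negative of 32, median 0.29), melanogenesis (9 positive and 5 negative of 51, median 0.29), neuroactive ligand-receptor interaction (8 positive and 15 negative of 47, median -0.46), pancreatic secretion (8 positive and 6 negative of 56, median -0.22) and Cushing's syndrome (12 positive and 8 negative of 86, median 0.19). Tcf7l1, Wnt3a, Fzd7, Dvl2 and Ctnnb1 of the Wnt list are among the positive calls of basal cell carcinoma, melanogenesis and Cushing's syndrome, which therefore overlap, and the other two pathways hold none of them.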

How the data were processed

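RNA of AT2 cells from Atg5f/f and Nkx2.1Cre;Atg5f/f mice after PBS or BLM was sequenced in 12 libraries. The cells were sorted, but the sort of Atg5-/- AT2-PBS is not described. The authors deposited 1 table of FPKM per gene from Cufflinks, with gene names and KEGG pathways, on mm9. The study's methods name STAR as aligner and TruSeq Stranded libraries from RNA with an integrity number over 7, whereas the submitters' processing notes list Trimmomatic 0.36, HISAT2 2.2.1.0, Cufflinks 2.2.1 and HTSeq 0.9.1, so the aligner is uncertain. A DESeq normalization is also described, and whether the deposited FPKM include it is not given in the sources used here. AT2-PBS replicate 3 bears another number in its description, and the title was used.

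Log2(FPKM + 1) of the 10675 genes with at least 1 FPKM in at least 3 libraries was fitted with limma 3.58.1 (R 4.3.3; lmFit, contrasts.fit and eBayes with trend) as 4 group means, with 8 residual degrees of freedom, and p-values were adjusted by Benjamini-Hochberg over all genes. The script was tested on simulated data. Depth is unknown, so no counting error is given, and 3 libraries per group limit the precision. The members, the 27 function lists and the 16 lists of cell types and sex chromosomes, written by hand from textbook knowledge, were chosen with earlier results of these data known. Of their 900 genes 889 were in the table and 803 were tested. Under the rule for named genes, up to 4 per group and direction had the largest interaction with an adjusted p under 0.05 and a group set apart, up to 3 per function list had the largest called interaction, and genes of the study's RNA-seq results and of the sort were added. Genes outside it are marked in the text, apart from those named only as markers or pathway members. 1 gene that the rule names is not reported here. Gene positions are those of GENCODE for mm9 (NCBIM37), and promoters are from RefSeq (GRCm38.p6), with entries for 680 list genes.

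Other settings tried were quantile and median-ratio scaling, a pseudocount of 0.1, all genes without a minimum FPKM, no variance trend, a replicate block, a Y-linked covariate, other call rules and each library left out, and after seeing the data, the 7 libraries without Y-linked expression and both AT2-PBS replicate 1 and AT2-BLM replicate 3 left out. In the table, 27 gene names had been turned into dates and were kept. Plots used matplotlib 3.10.9 (Python 3.11.15).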

Additional observations from a re-analysis of the deposited data

Results flagged for a closer look

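The test of the interaction itself gave an adjusted p under 0.05 for 842 genes, so that by this test their BLM effects differed between the genotypes. Those among the named genes are given here with their interaction on the log2(FPKM + 1) scale, by the group farthest from the other 3. Negative values with AT2-PBS farthest were Ly6a -6.18, Isg15 -5.36, Saa3 -4.94, Cfb -4.87, Gdf15 -4.1, Phlda3 -3.5, Cdkn1a -2.27, Usp18 -4.66, Irf7 -4.55, Psmb8 -1.74, Ctss -4.58, Orm1 -6.14, Saa1 -5.11, Spp1 -4.55, Timp1 -4.02, Gsto1 -4.44, Nqo1 -3.27, Eno1 -2.54, Taldo1 -1.5, Psmd14 -0.89, Psmc5 -0.68 and Cd34 -2.7. Positive values with AT2-PBS farthest were Avpr1a 2.91, Bcan 2.64, Ggcx 2.29, Tmem163 2.23, Abca3 0.98, Wnt3a 1.37 and Rnf43 1.31. Negative values with Atg5-/- AT2-PBS farthest were Plaur -5.94, Ccl6 -4.74, Tyrobp -4.5, Ccl2 -4.6, Cxcl2 -4.4, Sgk1 -3.13, Lipa -3.35, Psap -2.57, Slc16a3 -2.82 and Ptprc -2.38. Positive values with Atg5-/- AT2-PBS farthest were Fasn 1.53, Dock1 1.25, Cbx6 1.13 and Sh3bgr 1.09. Negative values with AT2-BLM farthest were Fam46b -3.48, Cldn4 -3.37, Rnd1 -2.31, Srxn1 -1.89 and Gsta2 -3.17. Positive values with AT2-BLM farthest were Cst8 2.6, Met 2.08, Bpifb5 2.04, Sap25 1.59 and Tcf7l1 1.42. Negative with Atg5-/- AT2-BLM farthest was Pgrmc1 -2.33. Leukocyte, macrophage and hepatocyte markers were highest in Atg5-/- AT2-PBS (918 to 1211, 1221 to 1607 and 2589 to 4473 summed FPKM), and their part in the values above was not tested.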

How the results depend on the processing

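Of the 97 named genes called for the interaction, 80 kept direction and call under quantile normalization, 89 under median-ratio scaling, 94 with a pseudocount of 0.1, 92 without the filter, 83 with the Y-linked covariate and 71 in the 7 libraries without Y-linked expression, where Junb (0.069), Myc (0.061) and Trib3 (0.00798) turned positive. The cause was not tested. With only an adjusted p under 0.05 as the criterion, calls were 842 for the interaction, 1900 and 926 for BLM in Atg5f/f and Atg5-/- cells, and 1199 and 1 for Atg5 loss with PBS and BLM. A fold of at least 2 gave 1328, 982, 914, 1113 and 101 in that order. Libraries without Y-linked expression gave 903 positive interaction calls, 1244 calls for Atg5 loss with BLM, and 519 and 332 called genes with AT2-BLM and Atg5-/- AT2-BLM set apart, fewer libraries making such separation easier. Without AT2-PBS replicate 1 and AT2-BLM replicate 3, a setting chosen after seeing the data like that without Y-linked expression, AT2-PBS was set apart in 798. Quantile normalization gave 1362 positive calls. Leaving out each library in turn gave 537 to 920 genes with an adjusted interaction p under 0.05, and AT2-PBS set apart in 386 to 750, AT2-BLM in 170 to 361 and Atg5-/- AT2-BLM in 5 to 35 called genes. Deviations from the group means in same-numbered libraries of different groups had no common direction (r from -0.295 to 0.227 over 18 pairs, mean -0.009). With 3 libraries per group this check cannot exclude a pairing. With the number as a replicate block 524 genes were positive, 1642 negative and 723 had an adjusted p under 0.05, and 94 of the named calls held. The unknown depth and 3 libraries per group limit all values.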
